A study of Mus musculus with 8 samples.

Results

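The mGluR6 signalling complex of ON bipolar cells was taken as 10 named genes, *Grm6*, *Trpm1*, *Nyx*, *Gpr179*, *Rgs7*, *Rgs11*, *Gnao1*, *Gng13*, *Lrit3* and *Prkca*, out of 54532 genes counted in whole mouse retina. The list was set by name, but it was chosen with earlier results of these data known. All 10 had a row in the count table, and 9 passed the filter on low counts that left 17998 genes for testing. *Grm6*, the receptor itself, did not pass it. The libraries came from 4 *Mettl3*-CKO retinas and 4 controls, labelled as taken at postnatal day 7 (the study's methods give day 6). *Mettl3*-CKO mice were Six3-Cre+; Mettl3 floxed/floxed, so that the m6A methyltransferase gene *Mettl3* was deleted in the descendants of retinal progenitor cells that had expressed Cre, with deletion shown by the study in central retina. The labels describe the other group only as control and do not say whether it carried Cre or the floxed alleles, nor whether each sample was a separate animal, so that p-values measure the spread between these samples.

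ON bipolar cells carry the light signal from rods and cones to the inner retina. In darkness, glutamate released by photoreceptors activates mGluR6 at the tips of the bipolar dendrites, and the G protein Go then keeps the cation channel TRPM1 closed. Light lowers glutamate, RGS proteins shut Go off, and TRPM1 opens. Loss of several of these proteins causes congenital stationary night blindness. Bipolar cells are among the last cells born in the mouse retina, and their dendritic synapses mature after the first postnatal week.

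Total counts ranged from 16227095 to 20281517 per sample, so that 3 counts, taken as the floor of detection, were at most 0.185 CPM. *Mettl3* itself was lower in *Mettl3*-CKO (24.1 ± 3.97 CPM, SD, n = 4) than in control retinas (31.2 ± 2.24 CPM, SD, n = 4), but replicate 2 of *Mettl3*-CKO overlapped the controls and the difference did not pass the threshold (log2 fold change -0.38, adjusted p = 0.0602, edgeR's quasi-likelihood test, with p-values adjusted by the Benjamini-Hochberg method). These levels are of RNA counted over the gene in whole retina, so their difference does not measure how far *Mettl3* was deleted. The study showed the deletion by staining for METTL3 protein in central retina. The tissue label was checked on marker lists. Rod, amacrine, Müller and bipolar markers were present, but the Müller marker *Aqp4* (4 to 12 counts) did not pass the filter on low counts. The cone marker *Opn1mw* (0 to 6 counts) did not pass it either. *Otx2*, on the bipolar list, reached 1265 CPM, but the study used it to mark precursors of both bipolar cells and rods. Of the 16 bipolar markers, 13 passed the filter on low counts. The other 3, *Vsx1* (2 to 16 counts), *Bhlhe23* (0 to 6 counts) and *Scgn* (0 to 6 counts), did not. Lens genes summed to 2800 CPM in control replicate 4 against at most 49.7 CPM in the other samples.

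Values of single samples are given in CPM after TMM scaling, in the order of replicates 1, 2, 3 and 4 of each group. Of the 9 tested genes, 1 fell in *Mettl3*-CKO retinas, *Prkca*, and 0 rose, or 11.1% called, where 10.5% of all genes tested were called (6.49% higher and 4.05% lower). In edgeR 2 had an unadjusted p under 0.05. DESeq2 called 1 of the 9, *Prkca*, and 14.2% of all genes tested, and limma voom called 2, *Gpr179* and *Prkca*, and 20.6% of all. With control replicates 1 and 4 left out, edgeR called 0 of the 9 (2 at an unadjusted p under 0.05) and 9.87% of all genes tested. The median log2 fold change of the 9 was -0.07, against -0.01 over all genes tested, with 4 values above 0 and 5 below. Their median absolute log2 fold change was 0.18, the same as the 0.18 of all genes tested. In bulk tissue, fewer cells of a type and less RNA per cell cannot be told apart.

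**Figure D1:**
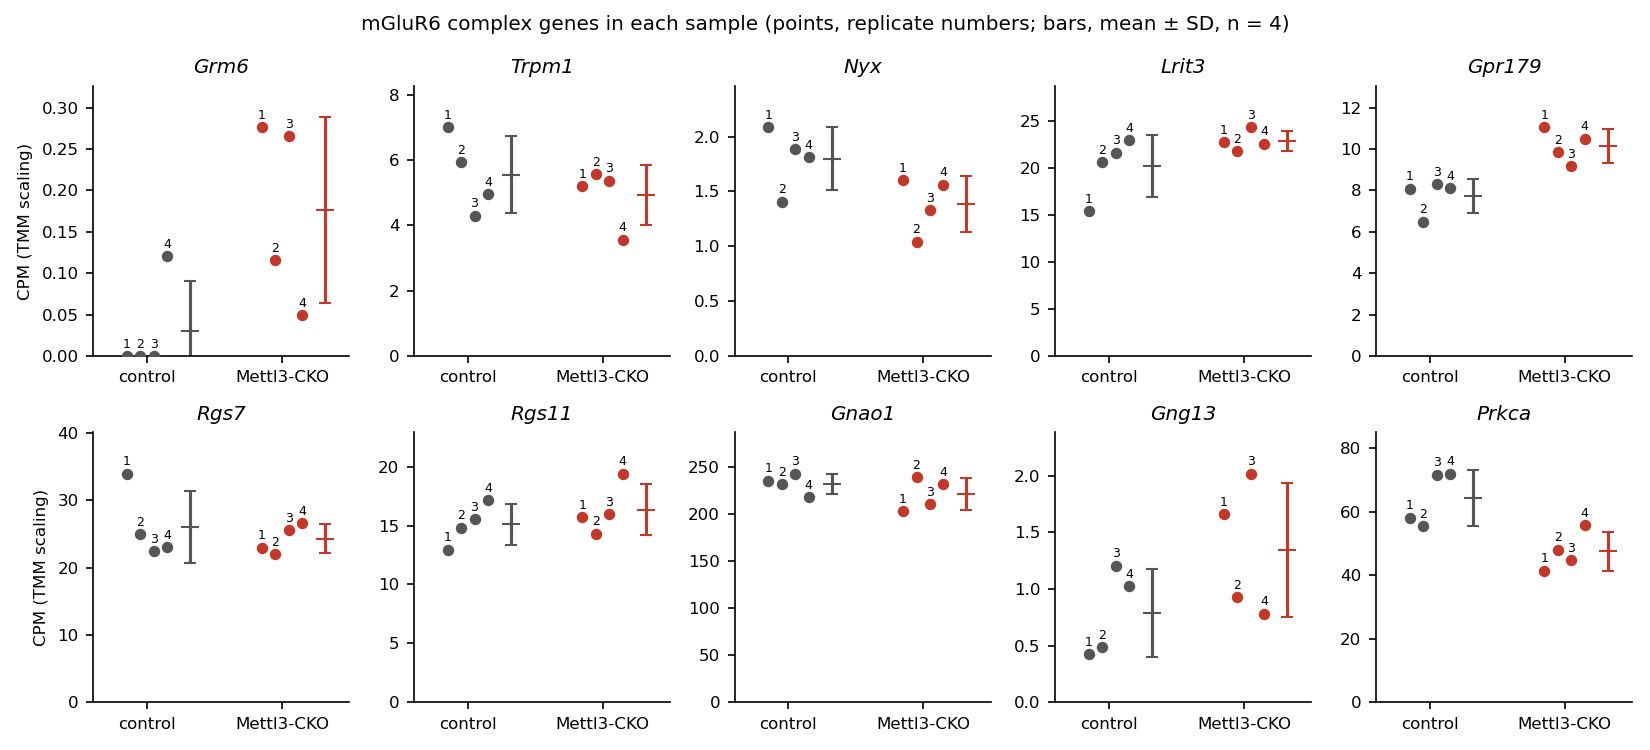
Level of each of the 10 genes in each sample, in CPM after TMM scaling, on axes that start at 0. Points are samples with their replicate numbers and bars are the mean ± SD (n = 4). The groups overlap in every panel but that of *Gpr179*, where *Mettl3*-CKO samples lie at 9.19 to 11.1 CPM and controls at 6.49 to 8.29 CPM.

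*Grm6* (chr11:50850685-50866208, plus strand, GRCm38) encodes mGluR6, the glutamate receptor of ON bipolar dendrites. It had 5, 2, 5 and 1 counts in the *Mettl3*-CKO samples, against 0, 0, 0 and 2 counts in the controls. Only *Mettl3*-CKO replicates 1 and 3 were above the floor of 3 counts, and the groups overlapped. Over the groups this was 13 against 2 counts, a ratio of 6.15 after scaling for depth, with an exact 95% interval of 1.39 to 56.2 that covers counting error only. With the spread between samples taken into account, the difference did not pass (exact permutation test on CPM, two-sided, p = 0.0857, where the smallest value possible is 0.0286). The receptor transcript was thus at the edge of detection in both groups, at 3.57% and 0.510% of the counts of the channel gene *Trpm1* in *Mettl3*-CKO and control retinas.

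*Trpm1* (chr7:64153835-64269775, plus strand) encodes the cation channel that mGluR6 closes. Its level was 5.20, 5.57, 5.37 and 3.57 CPM in the *Mettl3*-CKO samples, against 7.01, 5.94, 4.30 and 4.96 CPM in the controls. Samples of both groups were interleaved, with control replicate 1 highest and *Mettl3*-CKO replicate 4 lowest. The log2 fold change was -0.18 (95% interval -0.61 to 0.25, adjusted p = 0.644, edgeR's quasi-likelihood test). *Trpm1* is also expressed in pigment cells. The 8 pigment epithelium markers summed to 59.8 to 83.6 CPM in *Mettl3*-CKO and 92.0 to 124 CPM in control samples. Of the 7 tested, 4 fell and 0 rose, or 57.1% called against 10.5% of all genes tested. Of these markers *Rpe65* had 0 to 14 counts in a sample and did not pass the filter, while the other 7 had between 6 and 951 counts. Their part in the *Trpm1* level was not tested.

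The scaffold proteins hold the channel and the receptor at the dendritic tip. *Nyx* (chrX:13466110-13489313, plus strand) encodes nyctalopin, a leucine-rich repeat protein that is needed for TRPM1 to reach the tip. It was at 1.60, 1.04, 1.33 and 1.56 CPM in the *Mettl3*-CKO samples, against 2.09, 1.41, 1.89 and 1.81 CPM in the controls. All *Mettl3*-CKO samples were below 3 of the 4 controls, and control replicate 2 lay among them. The log2 fold change was -0.38 with a 95% interval of -0.92 to 0.17 (adjusted p = 0.403, edgeR's quasi-likelihood test; exact permutation p = 0.0857).

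*Lrit3* (chr3:129787881-129804030, minus strand) encodes another leucine-rich repeat protein, made in photoreceptors, that is needed for nyctalopin and TRPM1 to assemble across the synapse. It was at 22.8, 21.9, 24.4 and 22.6 CPM in the *Mettl3*-CKO samples, against 15.5, 20.6, 21.7 and 23.0 CPM in the controls. The *Mettl3*-CKO samples lay close together, while control replicate 1 stood below all other samples. The log2 fold change was 0.18 with a 95% interval of -0.08 to 0.45 (adjusted p = 0.399, edgeR's quasi-likelihood test).

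*Gpr179* (chr11:97332109-97352077, minus strand) encodes the orphan receptor that anchors RGS7 and RGS11 beside mGluR6. Its level was 11.1, 9.86, 9.19 and 10.5 CPM in the *Mettl3*-CKO samples (10.2 ± 0.808, SD, n = 4), against 8.08, 6.49, 8.29 and 8.10 CPM in the controls (7.74 ± 0.838, SD, n = 4). It was the only gene of the 9 tested whose groups did not overlap, and 17.4% of all genes tested had groups that did not overlap. The log2 fold change was 0.39 (standard error 0.13, 95% interval 0.11 to 0.68), with an adjusted p of 0.0789 from edgeR's quasi-likelihood test. The difference therefore missed the threshold, whereas limma voom gave an adjusted p of 0.0313. It did not pass edgeR's test without any 1 of the 8 samples.

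*Rgs7* (chr1:175059087-175492500, minus strand) and *Rgs11* (chr17:26202951-26211324, plus strand) encode the GTPase-activating proteins that end Go signalling. *Rgs7* was at 23.0, 22.0, 25.6 and 26.6 CPM in the *Mettl3*-CKO samples, against 34.0, 25.0, 22.5 and 23.0 CPM in the controls. *Rgs11* was at 15.7, 14.3, 15.9 and 19.4 CPM in *Mettl3*-CKO and at 12.9, 14.8, 15.5 and 17.2 CPM in control retinas, in the same order. Neither gene separated the groups. The log2 fold changes were -0.10 (95% interval -0.39 to 0.19, adjusted p = 0.695) for *Rgs7* and 0.11 (95% interval -0.16 to 0.39, adjusted p = 0.639) for *Rgs11* in edgeR's quasi-likelihood test. The sign for *Rgs7* rested on control replicate 1, without which its log2 fold change was 0.052. The log2 ratio of *Rgs11* to *Rgs7* within a sample was higher by 0.20 in the *Mettl3*-CKO group (exact permutation p = 0.543, adjusted over 3 ratios 0.543), and without control replicate 1 the difference was -0.0079.

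*Gnao1* (chr8:93809966-93969388, plus strand) encodes the alpha subunit of Go and is expressed in many neurons besides bipolar cells. It was at 203, 239, 210 and 232 CPM in the *Mettl3*-CKO samples, against 235, 231, 243 and 218 CPM in the controls. With a coefficient of variation of 7.7% and 4.5% it was, in the controls, the steadiest of the 10 genes. Its log2 fold change of -0.07 had the narrowest 95% interval of the 9 tested, from -0.24 to 0.10 (adjusted p = 0.655, edgeR's quasi-likelihood test).

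*Gng13* (chr17:25717171-25719406, plus strand) encodes the gamma subunit that pairs with G beta 3 in ON bipolar cells. It was at 1.66, 0.928, 2.02 and 0.782 CPM in the *Mettl3*-CKO samples, against 0.428, 0.490, 1.21 and 1.03 CPM in the controls. These levels rest on 8 to 38 counts, and both groups ran from low to high samples. The log2 fold change of 0.76 was the largest of the 9, and its 95% interval the widest, from -0.14 to 1.67 (adjusted p = 0.287, edgeR's quasi-likelihood test). The gene span of *Gng13*, introns included, overlaps by 481 bases that of *Chtf18* on the opposite strand, which had 174 to 370 counts. The span of *Rgs11* overlaps by 4836 bases that of *Arhgdig*, which had 156 to 298 counts. Overlap of their exons was not examined, and whether strand was used in counting is not given in the sources used here. The split of reads within these pairs is therefore not known. Neither neighbour passed the test (log2 fold changes 0.15 and 0.12, adjusted p = 0.709 and 0.741, edgeR's quasi-likelihood test).

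*Prkca* (chr11:107933387-108343928, minus strand) encodes protein kinase C alpha, the usual marker of rod bipolar cells, where it modulates the response to light. Its level was 41.5, 48.1, 44.8 and 55.8 CPM in the *Mettl3*-CKO samples (47.5 ± 6.11, SD, n = 4), against 58.2, 55.5, 71.7 and 72.0 CPM in the controls (64.3 ± 8.71, SD, n = 4). Of the *Mettl3*-CKO samples, 3 were below every control, and replicate 4 lay just above control replicate 2. *Prkca* fell by 0.44 on the log2 scale (standard error 0.12, 95% interval -0.69 to -0.18, adjusted p = 0.0339, edgeR's quasi-likelihood test), a decrease of 26.1%. The call was lost without *Mettl3*-CKO replicate 1, 2 or 3 (adjusted p = 0.141, 0.0744 and 0.102 in edgeR's quasi-likelihood test) and without control replicate 3 or 4 (0.102 and 0.0915), while the log2 fold change stayed between -0.52 and -0.37. With control replicates 1 and 4 both left out, the adjusted p was 0.0506 (log2 fold change -0.42, edgeR's quasi-likelihood test).

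Two-sided exact permutation tests were also run on 2 ratios to the receptor gene. Relative to *Grm6*, *Trpm1* was lower by a log2 difference of -1.19 and *Prkca* by -1.45 in *Mettl3*-CKO than in control retinas (exact permutation p = 0.0857 and 0.0571, both 0.129 after adjustment over 3 ratios). Both ratios rest on the 0 to 5 counts of *Grm6* and on the prior count of 2 that was added. With a prior count of 0.5 the differences were -2.24 and -2.51.

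**Figure D2:**
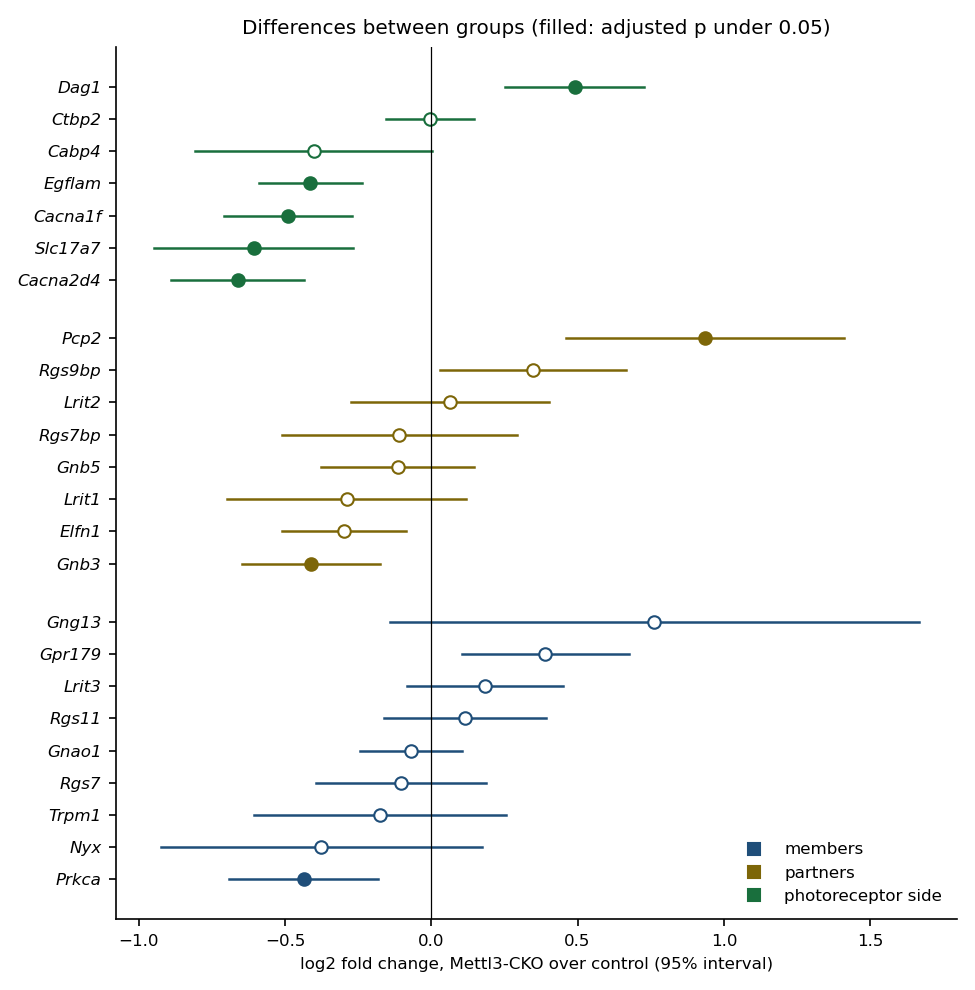
Log2 fold change of *Mettl3*-CKO over control with its 95% interval for the 9 tested genes of the complex, 8 partner genes and 7 genes of the photoreceptor side of the synapse. Filled points have an adjusted p under 0.05 in edgeR's quasi-likelihood test. Of the complex only *Prkca*, at -0.44, is filled. Of the 7 genes listed for the photoreceptor side, 5 are filled, from *Cacna2d4* at -0.66 to *Dag1* at 0.49.

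Levels were compared between genes as FPKM, that is per length and total count. In controls *Gnao1* was highest (20.8 ± 0.862 FPKM, SD, n = 4), followed by *Lrit3* (7.35 ± 1.31), *Prkca* (7.12 ± 1.02), *Rgs7* (4.30 ± 0.797) and *Rgs11* (3.58 ± 0.465). Below them came *Gng13* (1.02 ± 0.507), *Gpr179* (0.806 ± 0.0835), *Trpm1* (0.374 ± 0.0743), *Nyx* (0.345 ± 0.050) and *Grm6* (0.00561 ± 0.0112). *Gnao1* was above 84.6% of all genes tested, whereas *Trpm1* was above 8.5% and *Nyx* above 7.6% of them. In *Mettl3*-CKO retinas the means had the same order. Neighbours in the order whose control samples overlapped were *Lrit3* and *Prkca*, *Rgs7* and *Rgs11*, *Gng13* and *Gpr179*, and *Trpm1* and *Nyx*. The order depends on the length used, since the deposited gene lengths are 3.19 times the length of 1 coding transcript for *Gnao1*, 2.85 times for *Rgs7*, 2.58 times for *Trpm1* and 2.10 times for *Rgs11*, and at most 1.25 times for the other 6. Per length of that transcript, *Rgs7* (12.3 FPKM in controls) was above *Lrit3* (8.20) and *Prkca* (7.61), and *Trpm1* (0.965) was above *Gpr179* (0.834) in controls but not in *Mettl3*-CKO retinas (0.863 and 1.10). *Gnao1* remained first, and *Nyx* and *Grm6* remained last.

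**Figure D3:**
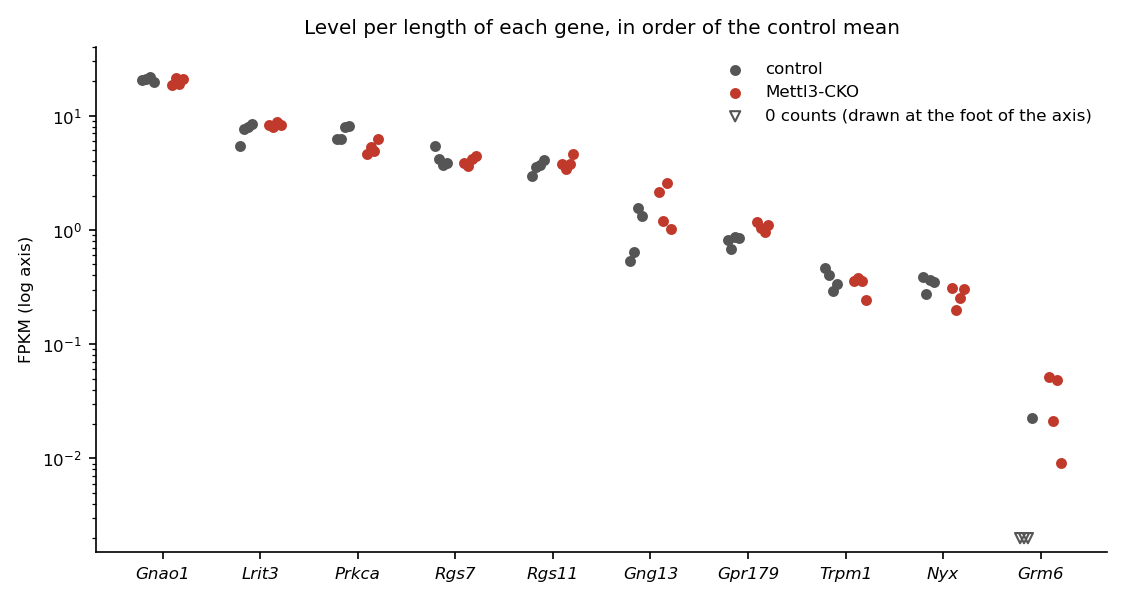
FPKM of each gene in each sample on a log axis, ordered by the control mean. Open triangles at the foot of the axis are samples with 0 counts. The genes run from *Gnao1* at 18.5 to 21.9 FPKM down to *Grm6*, whose highest sample reached 0.0514 FPKM.

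Variation among samples had no common pattern across the complex. Control replicate 1 was the highest control for *Trpm1*, *Nyx* and *Rgs7* and the lowest for *Lrit3*, *Rgs11* and *Gng13*. For *Nyx* the coefficient of variation (18.6% in *Mettl3*-CKO and 15.8% in control retinas) was near that expected from counting alone (19.6% and 17.7%). For *Rgs7* in the controls it was 20.5%, against 4.6% from counting, and for *Gng13* 49.2% against 26.7%. Each gene was centred on its mean over the 8 samples on the log2 scale and set against the mean profile of the 10. The root mean square distance from that profile ran from 0.144 log2 units for *Lrit3* to 0.608 for *Grm6*.

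METTL3 and its partners methylate adenosine mainly in GGACT and related sequences, often near stop codons, so the letters GGACT were searched on the sense strand of 1 coding transcript per gene. All 10 genes held at least 1 copy, as did 92.4% of the 14274 tested genes with a coding transcript. Within 200 bases of the last coding base it was present in 5 of the 10, against 39.8% of those genes. The copy nearest to the stop codon is shown for these 5, with 10 bases on each side and GGACT in capitals, in genome letters of GRCm38 (GENCODE) and in the direction of the transcript. The copies of *Grm6*, *Rgs11* and *Rgs7* lie in the 3′ UTR, at chr11:50864752-50864776 (plus), chr17:26210853-26210877 (plus) and chr1:175059619-175059643 (minus), which is 109, 138 and 116 bases past the last coding base. Those of *Gpr179* and *Lrit3* lie in the last coding stretch, at chr11:97334444-97334468 (minus) and chr3:129788331-129788355 (minus), 7 and 49 bases before it.
Grm6: tcggaggccaGGACTgtgtaaagat
Rgs11: cttcagttcaGGACTaggctgtctc
Rgs7: catgaacgaaGGACTggaattgttc
Gpr179: actacccttgGGACTgtgaatgaca
Lrit3: agtcaagtgtGGACTcccagatgaa
*Gpr179* held 19 copies in all, in the longest transcript of the 10, or 2.06 per kb, against 2.78 for *Gng13*, 2.49 for *Rgs11* and a median of 1.06 over the tested genes. *Prkca* held 10 copies, or 1.19 per kb, the nearest 303 bases before the end of the coding sequence. A match of letters does not show methylation, which was not analysed here.

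The partner list held 8 further genes that bind or act with the complex, chosen with earlier results of these data known. Of these, 1 rose, 1 fell and 6 did not pass, or 25.0% called against 10.5% of all genes tested. For the 6, the log2 fold changes lay between -0.30 and 0.35. *Gnb3*, the G beta subunit of Go in ON bipolar cells and of cone transducin, was at 349, 353, 442 and 416 CPM in the *Mettl3*-CKO samples, against 599, 474, 470 and 532 CPM in the controls. Its groups did not overlap, and it fell by 0.41 on the log2 scale (standard error 0.11, adjusted p = 0.0306, edgeR's quasi-likelihood test). The call for *Gnb3* was lost without *Mettl3*-CKO replicate 1 or 2 or control replicate 4, and with control replicates 1 and 4 both left out (log2 fold change -0.28, adjusted p = 0.111, edgeR's quasi-likelihood test). *Pcp2*, a Go modulator of rod bipolar cells, was at 5.81, 3.36, 5.37 and 5.57 CPM in *Mettl3*-CKO and at 2.19, 2.39, 2.57 and 3.38 CPM in control retinas. Only *Mettl3*-CKO replicate 2 overlapped the controls. *Pcp2* rose by 0.94 on the log2 scale (standard error 0.22, adjusted p = 0.0187, edgeR's quasi-likelihood test), and its call was lost without *Mettl3*-CKO replicate 1 or 3 or control replicate 2. *Prkca* and *Pcp2*, both known from rod bipolar cells, thus moved in opposite directions in whole retina. Which cells their RNA came from was not tested. Control means were 7.12 FPKM for *Prkca*, 0.374 for *Trpm1* and 0.00561 for *Grm6*.

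On the photoreceptor side of the synapse, 5 of 7 genes were called, 4 lower and 1 higher, or 71.4% against 10.5% of all genes tested. The 7 genes were chosen with earlier results of these data known, so this share describes the list and is not a test. *Cacna2d4*, an auxiliary subunit of the photoreceptor calcium channel, was at 125 to 177 CPM in *Mettl3*-CKO and at 223 to 230 CPM in control samples (log2 fold change -0.66, adjusted p = 0.00248). *Cacna1f*, the pore subunit of that channel (-0.49, adjusted p = 0.0104), *Egflam*, which encodes the dystroglycan ligand pikachurin (-0.41, adjusted p = 0.00807), and *Slc17a7*, which loads glutamate into vesicles (-0.61, adjusted p = 0.0280), also fell in edgeR's quasi-likelihood test. *Dag1*, encoding dystroglycan, rose by 0.49 on the same scale (adjusted p = 0.0151, edgeR's quasi-likelihood test). The groups did not overlap in 5 of the 7 genes, which are the 5 called, against 17.4% of all genes tested. A call and separate groups are not independent, so this adds little to the calls. *Cacna2d4* and *Egflam* kept their calls without any 1 sample, *Cacna1f* and *Dag1* lost theirs without *Mettl3*-CKO replicate 1 (adjusted p = 0.0611 and 0.0669), and *Slc17a7* lost it without *Mettl3*-CKO replicate 1, 2 or 3 or control replicate 2 (adjusted p up to 0.110) and with control replicates 1 and 4 both left out (0.0611; all edgeR's quasi-likelihood test). The lists follow the place of the proteins at the synapse, and *Lrit3* of the complex is itself made in photoreceptors. Which cells the RNA of the listed genes came from was not tested. The median log2 fold change of the 7 was -0.41, against -0.07 for the 9 tested genes of the complex, which is not a comparison of cell types. Markers of rods moved with these genes, 5 of 9 falling and 0 rising, or 55.6% called against 10.5% of all genes tested. The rod markers summed to 1300 to 2393 CPM in *Mettl3*-CKO and 2525 to 3751 CPM in control samples. Their part in the synaptic genes was not tested.

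Relatives of the complex genes outside it were used as a comparison. Of 17 tested, among them other metabotropic glutamate receptors, inhibitory G alpha subunits and R7 RGS proteins, 0 were called by edgeR (4 at an unadjusted p under 0.05), 3 by DESeq2 and 4 by limma voom. Of all genes tested, edgeR called 10.5%, DESeq2 14.2% and limma voom 20.6%. The log2 fold changes of the 17 ran from -0.60 to 0.47, with a median of 0.01. Among 13 tested bipolar markers 2 rose and 0 fell in edgeR, or 15.4% called against 10.5% of all genes tested. *Neurod4*, a bHLH factor of bipolar and amacrine genesis, was at 1063, 841, 1165 and 1150 CPM in the *Mettl3*-CKO samples, against 865, 649, 840 and 808 CPM in the controls (log2 fold change 0.42, adjusted p = 0.0467, edgeR's quasi-likelihood test). Replicate 2 of *Mettl3*-CKO lay among the controls, and the other *Mettl3*-CKO samples were above all of them. Cell cycle markers of progenitors summed to 1766 to 2393 CPM in *Mettl3*-CKO and 1358 to 1700 CPM in control samples, and their part in the *Neurod4* level was not tested. The *Neurod4* call was lost without any 1 of *Mettl3*-CKO replicates 1, 3 and 4 or control replicates 2, 3 and 4 (adjusted p up to 0.138, edgeR's quasi-likelihood test).

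**Figure D4:**
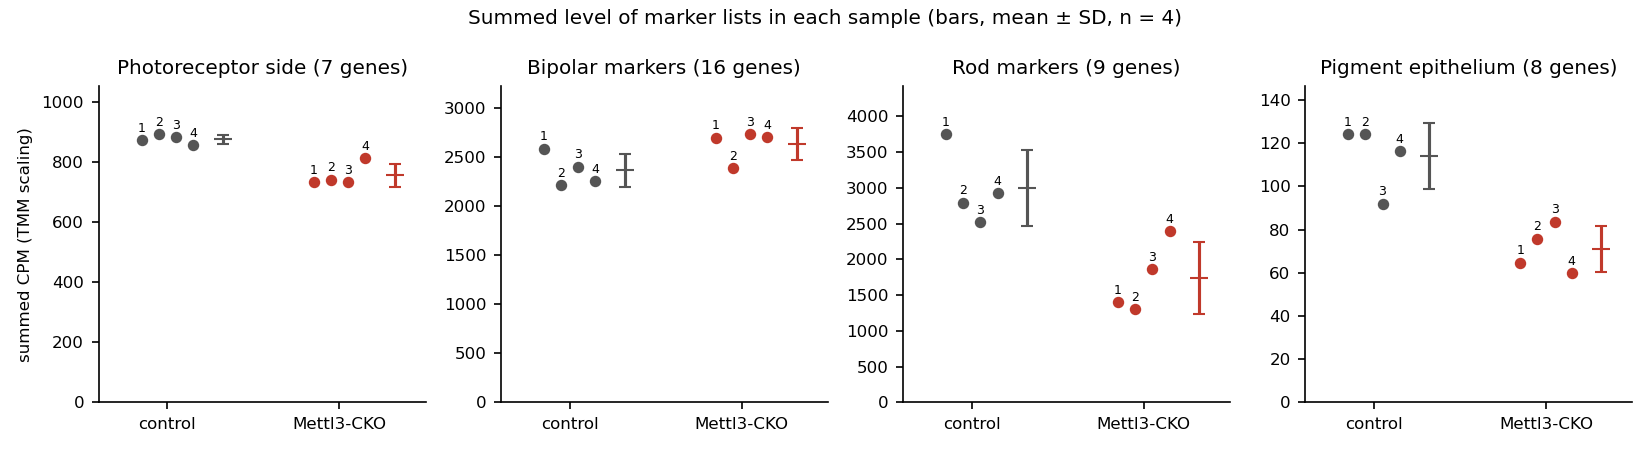
Summed CPM, after TMM scaling, of 4 marker lists in each sample, on axes that start at 0. Points are samples with their replicate numbers and bars are the mean ± SD (n = 4). Sums of the photoreceptor side of the synapse, of rod markers and of pigment epithelium markers do not overlap between the groups, whereas those of bipolar markers do, at 2388 to 2735 CPM in *Mettl3*-CKO and 2215 to 2588 CPM in control samples.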

How the data were processed

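RNA was measured by RNA-seq in 8 retinal samples. Low-quality reads were removed and the others aligned to GRCm38 with HISAT2, and the authors deposited raw counts per gene from featureCounts. The annotation release and strand setting are not given in the sources used here. Columns were matched to samples by their labels.

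In R 4.3.3, edgeR 4.0.16 was used: filterByExpr by group, TMM scaling, quasi-likelihood test, Benjamini-Hochberg adjustment over 17998 genes, threshold 0.05. The scripts were tested on simulated counts. DESeq2 1.42.0, the test named in the study's methods, and limma 3.58.1 (voom, weighting samples by quality) were alternatives, with other scalings, no filter, a replicate block and samples left out. FPKM used the deposited gene lengths and totals. Intervals of log2 fold changes come from the fit and include the spread between samples, whereas the floor and the interval of the *Grm6* ratio cover counting error only. The genes, lists and naming rule (all members, called genes of the partner, photoreceptor, relative and bipolar lists, 5 nearest profiles) were chosen with earlier results of these data known. Part of what this rule names is not reported here. Leaving out control replicates 1 and 4 together, and FPKM per length of 1 coding transcript, were added after seeing the data. The closest pair of samples in a group differed by a chi-square of 5.45 per gene, so none was merged.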

Additional observations from a re-analysis of the deposited data

Results flagged for a closer look

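In 6 of 58 groups of 4 samples that were examined, 1 sample lay far from the other 3 by Dixon's criterion, where chance gives about 1 in 20, or 2.9. *Grm6* was at 0.121 CPM in control replicate 4 and at 0 in the other controls, which is a matter of 2 counts. *Gpr179* was at 6.49 CPM in control replicate 2 and at 8.08 to 8.29 CPM in the other controls. The summed level of the genes listed for the photoreceptor side of the synapse was 813 CPM in *Mettl3*-CKO replicate 4 and 735 to 743 CPM in the other *Mettl3*-CKO samples. Bipolar markers summed to 2388 CPM in *Mettl3*-CKO replicate 2 and to 2700 to 2735 CPM in the other *Mettl3*-CKO samples. Ganglion cell markers summed to 571 CPM in control replicate 1 and to 367 to 397 CPM in the other controls. Lens genes summed to 2800 CPM in control replicate 4 and to 2.94 to 49.7 CPM in the other controls.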

How the results depend on the processing

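Counts of called genes are for edgeR's quasi-likelihood test unless another is named. For the complex, limma voom called 1 gene higher, the number lower ranged from 0 to 1 when 1 sample was left out, and it was 0 without control replicates 1 and 4. For the partners, the number higher was 2 by limma voom and without control replicates 1 and 4, and 0 to 2 when 1 sample was left out. The number of partners lower was 2 by DESeq2 and by limma voom, 0 without control replicates 1 and 4, and 0 to 1 with 1 sample left out. For the photoreceptor side, leaving out 1 sample gave 0 to 1 higher and 2 to 4 lower. For the relatives, the number higher was 1 by DESeq2, 2 by limma voom, 1 without control replicates 1 and 4 and 0 to 1 with 1 sample left out. The number of relatives lower was 2 by DESeq2 and by limma voom, 1 with no filter on low counts and without control replicates 1 and 4, and 0 to 2 with 1 sample left out. For bipolar markers, the number higher was 0 to 2 with 1 sample left out, and limma voom called 1 lower. The log2 fold change of *Rgs7* was 0.044 in limma voom, 0.035 without control replicates 1 and 4, and -0.16 to 0.052 with 1 sample left out. With 1 sample left out the log2 ratio differences were -0.0079 to 0.31 for *Rgs11* to *Rgs7*, -1.50 to -0.98 for *Trpm1* to *Grm6* (exact permutation p = 0.0286 without control replicate 4) and -1.79 to -1.22 for *Prkca* to *Grm6* (exact permutation p = 0.0286 without *Mettl3*-CKO replicate 4). The smallest p that 4 against 3 samples allow is 0.0286. Causes were not tested, beyond the fewer samples in the fits that leave some out. The replicate numbers shared by the groups did not pair the samples (correlations of same-numbered samples -0.11, 0.22, -0.11 and 0.25, with 2 of the 4 *Mettl3*-CKO samples correlating best with their own number). With the replicate number as a block, 1198 genes were higher and 660 lower, 0 and 1 of the complex, and the counts of the 4 lists named here were those of the fit without it. Depth limits *Grm6*, *Gng13* and *Nyx* most.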
